A study of Homo sapiens with 12 samples.

Results

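The genes described here are the glucose-sensing transcription factor MLXIP (MondoA), its relative MLXIPL (ChREBP), their shared partner MLX, and the 4 arrestin-domain genes ARRDC1, ARRDC2, ARRDC3 and ARRDC4. They were chosen by gene symbol, with earlier results of these data known. All 7 were found among the 48162 gene identifiers of the count table, and all 7 were among the 15630 genes that passed the filter on low counts. RNA was sequenced from T84, an established human colon carcinoma line that forms an epithelial sheet. Confluent T84 cells were moved into Hanks buffered saline at pH 7.4, the control, or at pH 6.0, and were collected after 3 h or 6 h. There were 4 groups of 3 libraries, all from this single cell line, and every group had left its culture medium for the saline. The labels do not state that replicate libraries had separate cultures as their source, so p-values reflect library-to-library spread that may be technical.

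MondoA and ChREBP are basic helix-loop-helix leucine zipper proteins that pair with MLX, enter the nucleus when glucose 6-phosphate accumulates, and switch on genes of glucose use. ChREBP is known in the gut and liver for genes of sugar and fat handling, while MondoA is best known for switching on a pair of alpha-arrestins, TXNIP and ARRDC4, that restrain glucose uptake. Alpha-arrestins share the arrestin fold with the beta-arrestins of receptor signalling, and several of them bring NEDD4-family ubiquitin ligases to membrane proteins. TXNIP is not analysed here, since the naming tables paired no identifier of the count table with that symbol.

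MondoA and ChREBP complexes bind E-boxes, with the letters CACGTG, and carbohydrate response elements, in which E-box-like parts stand 5 bases apart. Both motifs were looked for in the 250 bases before each RefSeq start site on the GRCh38.p14 build, in 9 windows that covered all 7 genes, on both strands. An E-box was found in the windows of MLX and ARRDC4, with first bases at -50 and -210 relative to the start site, and in no window of the other 5 genes. Among 35116 promoter windows of the same length, 6.34% held an E-box. The carbohydrate response element, of which an E-box can form a part, was in 0.458% of those windows and in none of the 9. The stretches of 120 bases below are shown because MLX and ARRDC4 carry the E-box, in capitals, while ARRDC3, the member with the largest pH difference, has none in its windows. They lie at chr17:42566948-42567067 on the plus strand for MLX, chr15:97960453-97960572 on the plus strand for ARRDC4, and chr5:91383360-91383479 on the minus strand for the upstream start of ARRDC3. None of these bases lies in an annotated exon.
MLX: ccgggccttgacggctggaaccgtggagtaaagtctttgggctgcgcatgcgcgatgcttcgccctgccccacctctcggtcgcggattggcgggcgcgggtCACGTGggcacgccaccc
ARRDC4: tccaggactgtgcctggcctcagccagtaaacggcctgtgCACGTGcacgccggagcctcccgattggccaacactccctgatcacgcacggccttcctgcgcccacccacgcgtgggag
ARRDC3: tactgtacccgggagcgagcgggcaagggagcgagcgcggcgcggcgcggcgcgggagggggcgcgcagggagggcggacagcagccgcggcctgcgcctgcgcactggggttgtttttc
A match describes letters in a window and does not show that a factor binds there.

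Libraries held between 13912532 and 24331032 counts. All 12 intestinal epithelial markers looked for were present, with a summed level of 9561 to 12932 CPM (the usual count per library size, here with TMM-scaled totals), led by the keratin KRT8. Their sum at 3 h was 9973 to 10859 CPM at pH 7.4 and 10885 to 11293 CPM at pH 6.0. At 6 h it was 9561 to 9838 CPM at pH 7.4 and 11905 to 12932 CPM at pH 6.0, so the groups did not overlap at either time. Mitochondrial genes took 7.97% to 8.97% of the counts at pH 7.4 and 7.14% to 7.40% at pH 6.0 after 6 h, while their 3 h shares, from 7.46% to 10.6% over both pH values, overlapped. The part of either measure in the differences below was not tested. Summed fibroblast, leukocyte and endothelial markers stood at up to 13.7 CPM for each list in every library but 1, with the B cell marker MS4A1 at 0 in all 12. The exception was the second 6 h library at pH 7.4, where fibroblast markers summed to 32.1 CPM, of which the collagen gene COL1A1 gave 14.0 CPM. Without that library, the 4 members called for pH at 6 h kept their calls (adjusted p = 0.0130 for MLX, 0.0479 for MLXIPL, 0.0453 for ARRDC2 and 1.80e-04 for ARRDC3). In bulk RNA, fewer cells of a type and less RNA per cell cannot be told apart.

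At 3 h, ARRDC3 was higher at pH 6.0 than at pH 7.4, while MLX and ARRDC1 were lower. At 6 h, ARRDC3 was again higher and MLX again lower, and MLXIPL and ARRDC2 were higher as well. MLXIP and ARRDC4 passed the test at neither time. The test was edgeR's quasi-likelihood F test on the counts, with Benjamini-Hochberg adjustment over all 15630 genes and a threshold of 0.05. Adjusted p-values below come from it unless an alternative analysis, such as a library left out or DESeq2, is named. At 3 h, 3 of the 7 members changed, 1 of them higher and 2 lower, where 18.8% of all genes tested changed. At 6 h, 4 members changed, 3 higher and 1 lower, where 47.0% of all genes tested changed, so the count at 6 h stands near the background. The groups did not overlap for 3 members at 3 h and 4 members at 6 h, against 33.0% and 56.6% of all genes. The median log2 difference of the 7 members was -0.08 at 3 h and 0.03 at 6 h, beside -0.0031 and -0.00076 over all genes tested.

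**Figure D1:**
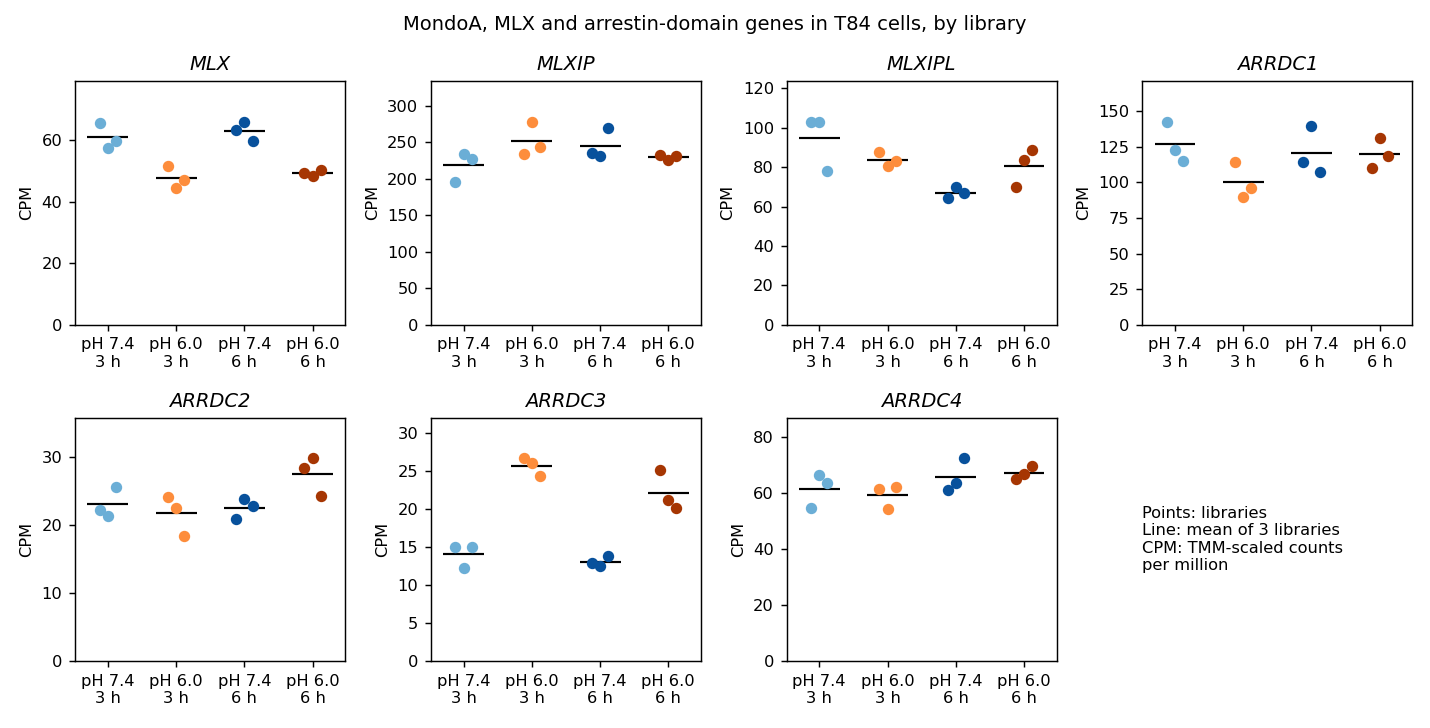
Level of each member in CPM in each of the 12 libraries, by pH and time, 1 panel a gene, with points for libraries and a line at the mean of each group of 3; each panel has its own axis from 0. ARRDC3 lies between 12.2 and 15.0 CPM in the 6 libraries at pH 7.4 and between 20.1 and 26.6 CPM in the 6 at pH 6.0, and MLX between 57.5 and 66.1 CPM at pH 7.4 and between 44.5 and 51.8 CPM at pH 6.0.

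MLX, the partner that MondoA and ChREBP need to bind DNA, was lower at pH 6.0 at both times. Its level at 3 h was 65.5, 57.5 and 59.8 CPM at pH 7.4 and 51.8, 44.5 and 47.0 CPM at pH 6.0. At 6 h it was 63.3, 66.1 and 59.9 CPM at pH 7.4 and 49.5, 48.3 and 50.4 CPM at pH 6.0. All 6 acid libraries lay below all 6 control libraries. MLX was 1.27-fold lower at 3 h (log2 fold change -0.35 ± 0.08 SE, adjusted p = 0.00612) and 1.28-fold lower at 6 h (-0.35 ± 0.08, adjusted p = 0.00161). The pH difference at 6 h less that at 3 h was -0.0025, with an interval of -0.25 to 0.25 at 95% (adjusted p = 0.991). In the GENCODE annotation, 770 of the 4259 exonic bases of MLX are shared with PSMC3IP on the opposite strand. Neither the annotation behind the authors' counts nor their use of strand is given in the sources used here. The overlap may therefore differ in the counts, and reads there cannot be assigned to 1 of the 2 genes. The same limit holds for the exon overlaps of other members given below. PSMC3IP was counted at 2.99 to 6.69 CPM, and its own log2 difference was -0.62 at 3 h (adjusted p = 0.0410) and -0.30 at 6 h (adjusted p = 0.269).

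MLXIP, which encodes MondoA, had the highest or the second highest level per length of the 7 in every group, by the gene lengths the authors used. Its level was 195.5, 234.5 and 226.9 CPM at pH 7.4 and 233.9, 278.2 and 244.0 CPM at pH 6.0 after 3 h. After 6 h it was 235.4, 231.3 and 269.5 CPM at pH 7.4 and 232.3, 225.5 and 230.6 CPM at pH 6.0. The groups overlapped at both times. The log2 difference was 0.20 ± 0.09 at 3 h (adjusted p = 0.106) and -0.10 ± 0.09 at 6 h (adjusted p = 0.381). At 6 h the 95% interval ran from -0.28 to 0.08. The difference between the times was -0.30 ± 0.12 (adjusted p = 0.0707), and without the second 3 h library at pH 7.4 its adjusted p was 0.0362. That was the 1 call among 19 alternative analyses, whose log2 values ran from -0.34 to -0.08 and adjusted p-values up to 0.612.

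MLXIPL, which encodes ChREBP, fell with time in the control saline and was higher at pH 6.0 at 6 h. It stood at 102.9, 103.1 and 77.9 CPM at pH 7.4 and at 87.6, 80.5 and 82.9 CPM at pH 6.0 after 3 h. The corresponding values after 6 h were 64.5, 69.7 and 67.0 CPM and 70.0, 83.6 and 88.8 CPM. The 3 h groups overlapped, since the third control library was the lowest of the 6, while at 6 h each acid library exceeded each control library. At pH 7.4 MLXIPL was 1.41-fold lower at 6 h than at 3 h (log2 fold change -0.50 ± 0.10, adjusted p = 8.13e-04). It was the 1 member of 7 that changed with time at pH 7.4, where 31.6% of all genes tested changed and 43.4% had groups that did not overlap. At pH 6.0 its time difference was -0.05 ± 0.10 (adjusted p = 0.774).

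The pH difference of MLXIPL was -0.18 ± 0.10 at 3 h (adjusted p = 0.227) and 0.27 ± 0.10 at 6 h (adjusted p = 0.0353). These differed from each other by 0.45 ± 0.14 on the log2 scale (adjusted p = 0.0229). MLXIPL was the 1 member of 7 whose pH difference differed between the times by this test, where 29.4% of all genes tested did. The 6 h call was lost when the first or the third control library (adjusted p = 0.109 and 0.0782) or the second or the third acid library (0.0736 and 0.118) of 6 h was left out, and with total counts in place of TMM scaling (0.0934). Without the third 3 h library at pH 7.4, the lower value at 3 h passed the threshold (adjusted p = 0.0473). The difference between the times was lost without the first 3 h control library (0.0620), the first 6 h control library (0.0553), the second or the third 3 h acid library (0.0517 and 0.0518) or the third 6 h acid library (0.0599).

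Among the arrestin-domain genes, ARRDC3 showed the largest pH differences. ARRDC3 is known for work on the trafficking of beta-adrenergic receptors and of integrin beta-4. At 3 h it stood at 15.0, 12.2 and 15.0 CPM at pH 7.4 and at 26.6, 26.0 and 24.3 CPM at pH 6.0. At 6 h the levels were 12.9, 12.5 and 13.9 CPM at pH 7.4 and 25.1, 21.2 and 20.1 CPM at pH 6.0. No acid library came down to the level of any control library. ARRDC3 was 1.82-fold higher at 3 h (log2 fold change 0.87 ± 0.11, adjusted p = 1.41e-05) and 1.69-fold higher at 6 h (0.76 ± 0.12, adjusted p = 1.53e-05). The difference between the times was -0.11 ± 0.16 (adjusted p = 0.671), with a 95% interval of -0.44 to 0.23. Antisense ARRDC3-AS1 shares 145 of the 4934 exonic bases of ARRDC3, and it was not analysed here.

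ARRDC1, which recruits the budding protein TSG101 to form vesicles at the plasma membrane, was lower at pH 6.0 at 3 h. Its 3 h levels were 142.7, 122.7 and 115.1 CPM at pH 7.4 and 114.1, 89.9 and 96.2 CPM at pH 6.0. Its 6 h levels were 114.6, 139.4 and 107.2 CPM at pH 7.4 and 110.0, 131.6 and 118.7 CPM at pH 6.0. At 3 h the highest acid library lay just under the lowest control library, and at 6 h the groups were interleaved. Of the 3821 exonic bases of ARRDC1, 183 are shared with AL590627.2 on the same strand, not analysed here, and 29 with the antisense ARRDC1-AS1, which was counted at 7.30 to 12.6 CPM. The log2 difference was -0.34 ± 0.11 at 3 h (adjusted p = 0.0328) and -0.0033 ± 0.11 at 6 h (adjusted p = 0.985), with a 95% interval of -0.23 to 0.22 at 6 h. The 3 h call was lost without the first or second control library (adjusted p = 0.174 and 0.0545) and without the second or the third acid library (0.152 and 0.122) of 3 h. It was also lost with a filter at 5 CPM (0.0547), with an offset for gene length (0.0572) and when the fit held the 3 h groups alone (0.0573). The difference between the times, 0.34 ± 0.15, had an adjusted p of 0.105, so the pH effects at 3 h and 6 h are not shown to differ. That p was 0.0149 without the first 3 h acid library, 0.0269 without the second 6 h control library and 0.0197 without the filter on low counts. These were the 3 of 19 alternative analyses with a call, and over all 19 the adjusted p reached 0.255. With time at pH 6.0 ARRDC1 differed by 0.26 ± 0.11 (adjusted p = 0.0990), and this p was 0.0139 without the first 3 h acid library and 0.0211 without the filter. The other 12 of 14 alternatives gave no call, with an adjusted p of up to 0.321.

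ARRDC2, a less studied relative, was higher at pH 6.0 at 6 h. It stood at 22.2, 21.3 and 25.5 CPM at pH 7.4 and at 24.1, 22.4 and 18.4 CPM at pH 6.0 after 3 h. Values after 6 h were 20.9, 23.9 and 22.7 CPM at pH 7.4 and 28.3, 29.7 and 24.2 CPM at pH 6.0. The 3 h groups overlapped and the 6 h groups did not, although the gap between 23.9 and 24.2 CPM was small. AC020904.3 on the opposite strand shares 442 of the 4637 exonic bases of ARRDC2, and it was not analysed here. The log2 difference was -0.08 ± 0.12 at 3 h (adjusted p = 0.664) and 0.29 ± 0.12 at 6 h (adjusted p = 0.0444). ARRDC2 was also the 1 member of 7 that changed with time at pH 6.0, by 0.34 ± 0.12 (adjusted p = 0.0423), where 19.5% of all genes tested changed and 8.64% were higher. The 3 h and 6 h groups at pH 6.0 did not overlap for 3 members, against 35.6% of all genes tested. Beside ARRDC2 these were ARRDC4, with 0.18 ± 0.09 (adjusted p = 0.190), and MLXIP, with -0.14 ± 0.09 (adjusted p = 0.295).

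Both ARRDC2 calls depended on single libraries. The 6 h pH call was lost without the first or the third control library (adjusted p = 0.149 and 0.0854) and without the first or second acid library (0.0728 and 0.125) of 6 h. The call with time at pH 6.0 was lost without the second or the third 3 h acid library (0.0699 and 0.229) and without the first or second 6 h acid library (0.0992 and 0.148). With total counts in place of TMM scaling the adjusted p-values were 0.0838 and 0.121, and DESeq2 gave 0.0534 for the 6 h pH difference. The difference between the times was 0.37 ± 0.16 (adjusted p = 0.0929), with an adjusted p of 0.0254 without the first 3 h acid library and 0.0437 without the third 6 h acid library. These were the 2 of 19 alternative analyses with a call, and over all 19 the adjusted p reached 0.263.

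ARRDC4, the member best known as a MondoA target, showed no pH difference that passed the test. It stood at 54.7, 66.3 and 63.5 CPM at pH 7.4 and at 61.5, 54.3 and 62.2 CPM at pH 6.0 after 3 h. After 6 h the values were 61.0, 63.4 and 72.3 CPM at pH 7.4 and 64.9, 66.7 and 69.6 CPM at pH 6.0. The groups overlapped at both times. The log2 difference was -0.05 ± 0.09 at 3 h (adjusted p = 0.751) and 0.03 ± 0.09 at 6 h (adjusted p = 0.794). The 95% intervals, -0.24 to 0.14 at 3 h and -0.16 to 0.22 at 6 h, leave out differences of the size seen in ARRDC3.

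**Figure D2:**
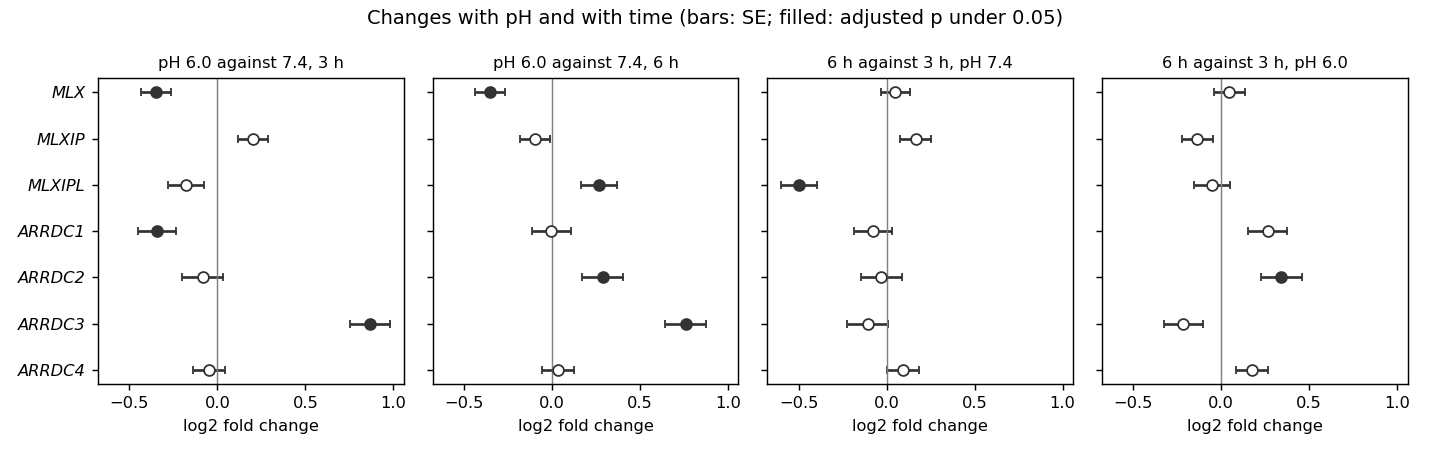
Log2 fold change of each member in 4 panels, pH 6.0 against pH 7.4 at 3 h and at 6 h and 6 h against 3 h at pH 7.4 and at pH 6.0, with bars for the SE and filled points for an adjusted p under 0.05. ARRDC3 stands at 0.87 and 0.76 and MLX at -0.35 and -0.35 in the pH panels, and MLXIPL at -0.50 with time at pH 7.4.

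Levels per transcript length were compared on the authors' RPKM values (read counts scaled to gene length and library size). The order rests on the authors' gene lengths, and other lengths could change it. In the GENCODE annotation the exons of MLXIP cover 13905 bases and those of MLX 4259, lengths other than those in the RPKM values. Levels on such lengths were not compared. After 3 h at pH 7.4 the order was ARRDC1 (41.4 ± 5.18 RPKM, SD, n = 3), MLXIP (39.2 ± 3.81), MLXIPL (30.0 ± 5.24), MLX (24.4 ± 1.73), ARRDC4 (15.7 ± 1.61), ARRDC2 (6.36 ± 0.448) and ARRDC3 (3.48 ± 0.344). The ranges of ARRDC1 and MLXIP overlapped, as did those of MLXIPL and MLX, and the other neighbours were separate. At pH 6.0 after 3 h MLXIP led with 44.2 ± 4.46 RPKM over ARRDC1 with 31.9 ± 3.73. There ARRDC3, at 6.22 ± 0.287 RPKM, reached the level of ARRDC2, at 5.87 ± 0.782, and the ranges overlapped. At 6 h MLXIP and ARRDC1 overlapped again at either pH, at 41.8 ± 3.76 and 37.3 ± 5.10 RPKM at pH 7.4 and at 37.9 ± 0.391 and 36.1 ± 3.45 RPKM at pH 6.0. MLX ranked above MLXIPL at pH 7.4, 24.1 ± 1.08 against 20.2 ± 0.781 RPKM, and below it at pH 6.0, 18.3 ± 0.283 against 23.6 ± 2.85 RPKM. ARRDC3 was the lowest again at 6 h, at 3.08 ± 0.185 RPKM at pH 7.4 and 5.06 ± 0.605 RPKM at pH 6.0.

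The make-up of both sets of genes was followed as ratios of RPKM within each library. The size of each ratio rests on the same gene lengths. MLXIP stood at 1.61 ± 0.252 times MLX at pH 7.4 and 2.37 ± 0.388 times at pH 6.0 after 3 h, and at 1.74 ± 0.234 and 2.07 ± 0.0276 times after 6 h. The groups did not overlap at either time, although the gap at 6 h, between 2.01 at pH 7.4 and 2.04 at pH 6.0, was small. A two-sided exact permutation test gave p = 0.1 at each time, the smallest that 3 against 3 libraries can give. ARRDC3 made up 5.22% ± 0.591 of the summed RPKM of ARRDC1 to ARRDC4 at pH 7.4 and 10.6% ± 0.832 at pH 6.0 after 3 h, and 4.98% ± 0.578 and 7.94% ± 1.24 after 6 h. ARRDC1 held the largest share in all 4 groups, from a mean of 54.1% at pH 6.0 after 3 h to 61.7% at pH 7.4 after 3 h. ARRDC4 kept a mean share between 23.5% and 25.7%.

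**Figure D3:**
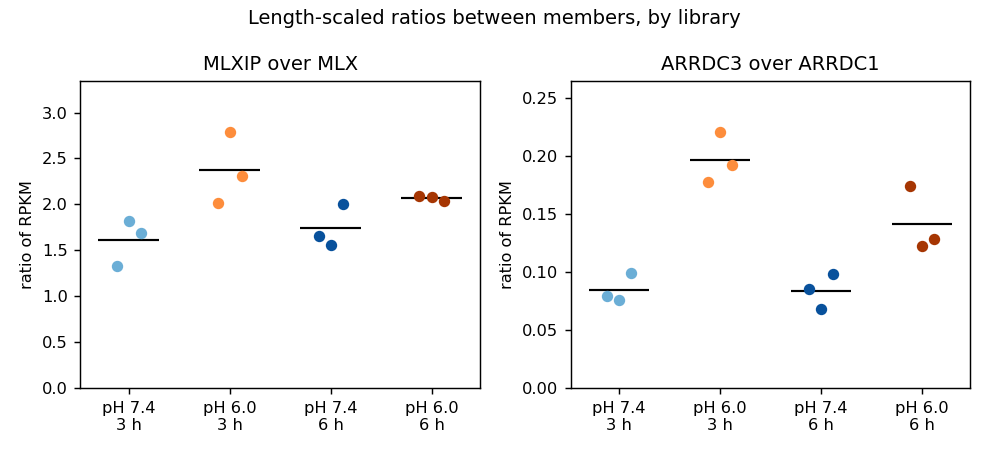
Ratio of MLXIP to MLX and of ARRDC3 to ARRDC1 within each library, taken on RPKM, by pH and time, with points for libraries and a line at the mean of each group of 3. The ratio of MLXIP to MLX has means of 1.61 and 1.74 at pH 7.4 and of 2.37 and 2.07 at pH 6.0 (3 h and 6 h), and the ratio of ARRDC3 to ARRDC1 has means of 0.0849 and 0.0839 at pH 7.4 and of 0.197 and 0.142 at pH 6.0.

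Known MondoA and ChREBP target genes other than the members were mostly higher at pH 6.0 by 6 h. Of 23 listed genes 21 were found and 17 tested. At 3 h, 6 of the 17 rose and the other 11 did not pass the test, where 9.53% of all genes tested were higher, and at 6 h 11 rose and 6 did not pass, where 21.9% were higher. Among those that passed at neither time, PKLR, GPD1, SLC2A5 and RGS16 had group means of only 0.27 to 1.66 CPM. Their SE at 3 h was 0.33 to 0.57, so a missing call says little about them. The list's median log2 difference was 0.31 at 3 h and 0.64 at 6 h. The 4 with the smallest p at 6 h were the transcription factor KLF10 (1.16 ± 0.09), the lactate dehydrogenase subunit LDHA (1.04 ± 0.09), PFKFB3, which makes an activator of glycolysis (0.82 ± 0.08), and ACLY, which supplies acetyl-CoA for fat synthesis (0.64 ± 0.07). With time at pH 7.4, 3 of the 17 rose and 7 fell, LDHA by 0.58 and ACLY by 0.24, whereas KLF10 rose by 0.30. Over all genes tested 17.2% rose and 14.4% fell there, so the share that rose is that of the background. KLF10 was the sole gene of the list called with time at pH 6.0 (1.15 ± 0.09). The pH difference was larger at 6 h than at 3 h for 7 of the 17, where 13.1% of all genes tested differed in that direction. ARRDC4, a target that is itself a member, had differences of -0.05 at 3 h and 0.03 at 6 h. The list was drawn up with earlier results of these data known, so its count is no independent support.

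Genes of hexose uptake and phosphorylation, the step that makes the sugar phosphates MondoA senses, included both higher and lower genes at 6 h. At 3 h, 3 of 12 tested were higher, where 9.53% of all genes tested were, namely the hexokinase HK2 (0.82 ± 0.09), the glucose transporter SLC2A1 (0.75 ± 0.08) and the glucose transporter SLC2A3 (0.64 ± 0.10). At 6 h, 4 were higher and 2 lower, with HK2 at 0.76 ± 0.09, SLC2A1 at 0.60 ± 0.08 and SLC2A3 at 0.56 ± 0.10. The remaining higher gene was G6PC3 (0.55 ± 0.11), a glucose-6-phosphatase, which removes the phosphate rather than adding it. Over all genes tested 21.9% were higher and 25.1% lower at 6 h, so these counts stand near the background. HK2 is in the target list as well. HKDC1, another hexokinase-like gene, was lower at 6 h by 0.80 ± 0.07 in log2 units, with 266.5 CPM in the control and 153.3 CPM in acid. HKDC1 had risen with time at pH 7.4, from 159.5 CPM, and at pH 6.0 it stood at 163.9 CPM after 3 h. The median of the list was 0.07 at 3 h and 0.38 at 6 h.

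The wider network of MLX and MAX, the partner of MYC, changed in both directions. Of 8 genes tested, 2 rose and 4 fell at 3 h, and 3 rose and 4 fell at 6 h, beside 9.53% of all genes tested that were higher and 9.26% lower at 3 h, and 21.9% higher and 25.1% lower at 6 h. MYC itself fell by 1.68 ± 0.10 on the log2 scale at 3 h and by 3.03 ± 0.10 at 6 h, from 200.5 to 24.5 CPM. The MAX partners that oppose MYC did not move as 1 group. MXD1 rose by 0.85 ± 0.08 and 1.18 ± 0.08, and MXI1 by 0.64 ± 0.10 and 0.94 ± 0.10, at 3 h and 6 h. MXD4 fell by 0.73 ± 0.09 and 1.18 ± 0.10. MNT rose at 6 h by 0.40 ± 0.11 (adjusted p = 0.00374), whereas MGA fell at 6 h by 1.00 ± 0.13 (adjusted p = 1.31e-05). MXD3 was called lower at 3 h alone, by 0.62 ± 0.16 (adjusted p = 0.0119). MAX itself was lower by 0.29 ± 0.09 at 3 h (adjusted p = 0.0247) and by 0.49 ± 0.09 at 6 h (adjusted p = 8.57e-05).

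NEDD4-family ubiquitin ligases and their adaptors, the enzymes that alpha-arrestins bring to membrane cargo, were mostly lower at pH 6.0 after 6 h. At 3 h SMURF2, by -0.47 ± 0.10, was the sole gene called among 9 tested, a share below the 18.8% called over all genes. At 6 h 6 fell and 1 rose, with a list median of -0.41, where 25.1% of all genes tested were lower. NEDD4 stood at 96.5 CPM at pH 7.4 and 43.2 CPM at pH 6.0 after 6 h (-1.16 ± 0.10), and SMURF2 at 32.5 and 13.6 CPM (-1.26 ± 0.10). ITCH was lower by 0.52 ± 0.08 and NEDD4L by 0.42 ± 0.08 in log2 units. NDFIP1, an adaptor of these ligases, was the sole gene that rose (0.34 ± 0.09). With time at pH 7.4, 7 of the 9 rose, where 17.2% of all genes tested did, and NEDD4 went from 47.4 to 96.5 CPM. At pH 6.0 NEDD4 stood at 44.7 CPM after 3 h and 43.2 CPM after 6 h. The pH difference was lower at 6 h than at 3 h for 5 of the 9, where 16.3% of all genes tested differed in that direction. SMURF2 was the sole gene of the list called with time at pH 6.0 (-0.39 ± 0.10).

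**Figure D4:**
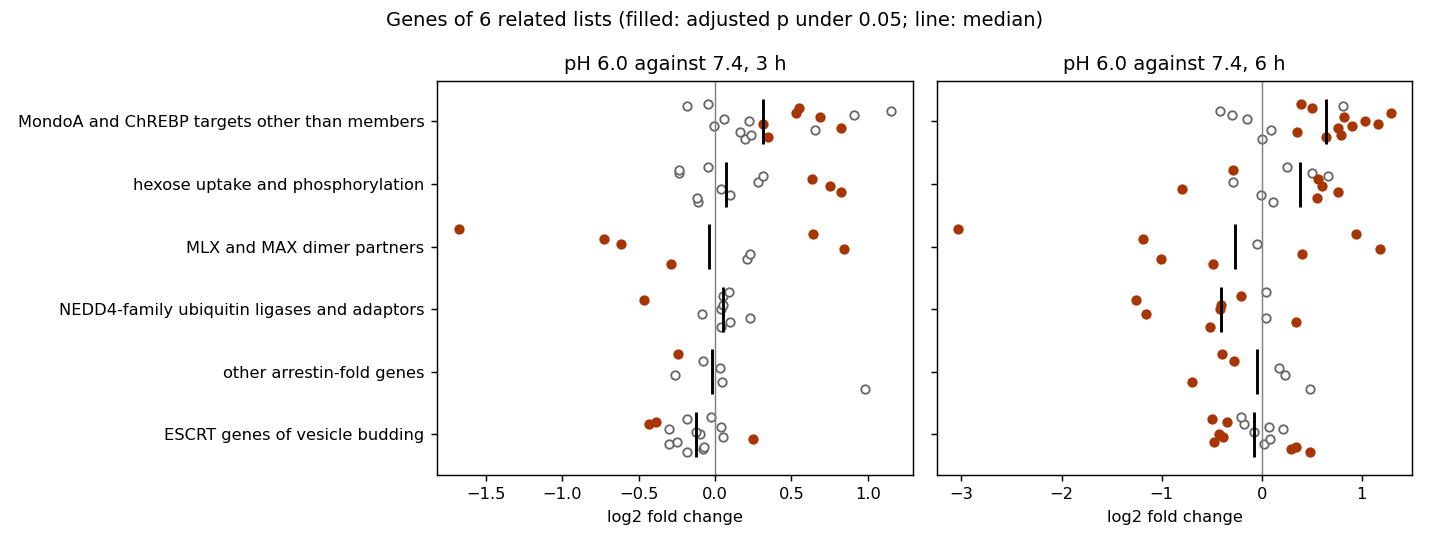
Log2 fold change, pH 6.0 against pH 7.4, of each tested gene of 6 related gene lists at 3 h and at 6 h, with filled points for an adjusted p under 0.05 and a line at the median of each list; the panels have different scales. The MondoA and ChREBP targets have medians of 0.31 and 0.64, and the NEDD4-family ligases and adaptors medians of 0.05 and -0.41.

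Each member was set beside the genes whose levels were most alike over the 12 libraries, by Pearson's r of log2 CPM among the 10209 genes that averaged 100 counts or more. These values share the libraries and the pH and time groups, and they are given as a description. MLX was closest to the co-chaperone gene DNAJB12 (r = 0.96) and to CHAC1, which degrades glutathione (0.96), and CHAC1 stood at 31.7 and 11.6 CPM at pH 7.4 and pH 6.0 after 3 h. ARRDC3 was closest to the urea-cycle gene CPS1 (0.96), at 14.8 and 25.1 CPM at pH 7.4 and pH 6.0 after 6 h, and to the actin crosslinker ACTN1 (0.95). MLXIP was closest to the proliferation marker MKI67 (0.95) and to NCOA1 (0.94). MLXIPL was closest to DDX39B (0.94) and NADSYN1 (0.94), and ARRDC1 to PYCR1 (0.95) and ZFYVE19 (0.94). The closest genes to ARRDC2, PSMD11 and RNPS1 (0.84 each), and to ARRDC4, PLD2 (0.83) and XRRA1 (0.80), were less alike.

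The calls for MLX and ARRDC3 at both times and for MLXIPL with time at pH 7.4 were kept in each of 14 alternative analyses. MLX ranged from -0.42 to -0.25 at 3 h and ARRDC3 from 0.77 to 0.91, with adjusted p-values of up to 0.0437 for MLX at 3 h. By contrast, the call for ARRDC1 at 3 h was kept in 7 of 14, for MLXIPL and ARRDC2 at 6 h in 9 and 8 of 14, and for ARRDC2 with time at pH 6.0 in 9 of 14.

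**Figure D5:**
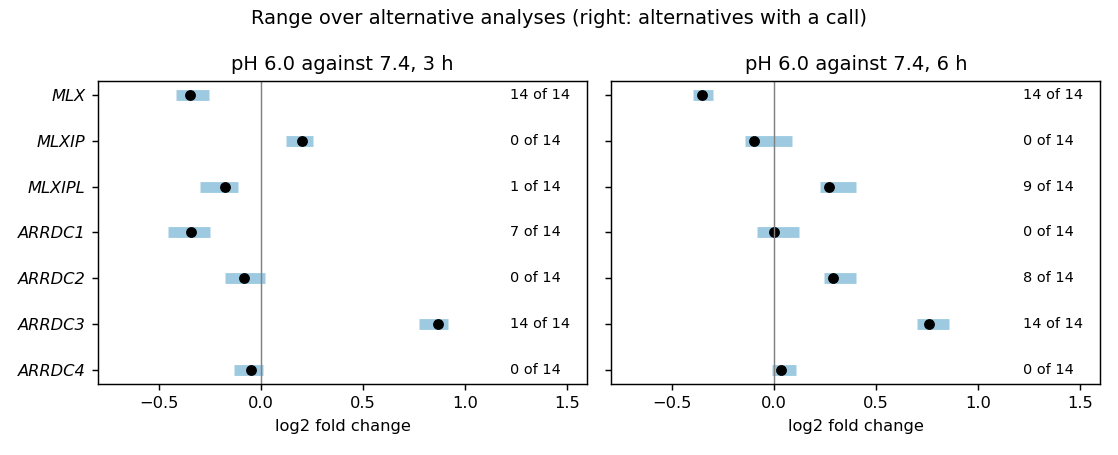
Log2 fold change of each member, pH 6.0 against pH 7.4, at 3 h and at 6 h, with a point for the analysis reported and a bar for the range over 14 alternatives, whose number with a call stands at the right. The bar of ARRDC3 at 3 h spans 0.77 to 0.91 with 14 of 14 called, and ARRDC1 at 3 h was called in 7 of 14.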

How the data were processed

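Reads of 12 libraries were aligned by the authors to hg19, with STAR and CASAVA listed per the submitters' processing notes. Versions, annotation, counter and strand setting were not given in the sources used here. The deposited series table holds read counts per Ensembl identifier, and the deposited sample tables hold RPKM values made by the authors from those counts. Symbols came from name tables and GENCODE 29 on GRCh38, used for names and exon overlap only, and 45342 identifiers received one. Promoter sequences are RefSeq's.

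Counts were fitted in edgeR 4.0.16 (R 4.3.3) with TMM factors (0.954 to 1.06), the default filter, all 12 libraries in 4 groups, 8 residual degrees of freedom and robust quasi-likelihood F tests, after testing on simulated data. The common biological coefficient of variation was 9.29%. The standard error is the log2 change divided by the square root of F. CPM uses TMM-scaled totals, and RPKM served only for levels between genes. Groups were taken from the treatment labels.

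Members and lists were chosen with earlier results of these data known, so list counts are no independent support. Named list genes are the 4 with the smallest p for pH at 6 h plus any sole gene of a direction. HK2 was counted in both of its lists. MNT, TSG101, MGA, MAX, MXD3, G6PC3, PKLR, GPD1, SLC2A5 and RGS16 were added after their values were seen. For each member the 2 genes with the most similar pattern are named as well. Alternatives covered other scaling, filters, a length offset, a replicate block, DESeq2 1.42.0, only the groups compared, and each library left out. ACACA, PECAM1 and TXNIP were not analysed here.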

Additional observations from a re-analysis of the deposited data

Results flagged for a closer look

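MLXIPL, the gene of ChREBP, was singled out because its pH difference was not the same at both times by a direct test. Its log2 difference at pH 6.0 against pH 7.4 at 6 h exceeded that at 3 h by 0.45 ± 0.14 (edgeR interaction test, adjusted p = 0.0229), from -0.18 at 3 h to 0.27 at 6 h. The mean level at pH 7.4 was 94.6 ± 14.5 CPM at 3 h and 67.1 ± 2.62 CPM at 6 h, and at pH 6.0 it was 83.7 ± 3.60 and 80.8 ± 9.74 CPM (SD, n = 3). The call was kept in 14 of 19 alternatives, and each of the 5 that lost it left out 1 library.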

How the results depend on the processing

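Total counts in place of TMM scaling gave 2 changed members with pH at 6 h in place of 4. They gave 0 with time at pH 6.0 in place of 1 (edgeR). Without the low-count filter 2 members changed with time at pH 6.0 and 2 in the difference between the times. Total counts moved the higher and lower split of all calls from 1489 and 1448 to 1194 and 1752 for pH at 3 h, from 2695 and 2247 to 2093 and 3179 with time at pH 7.4, and from 1351 and 1699 to 773 and 2499 with time at pH 6.0. Leaving out single libraries gave 1648 to 3617 changed genes for pH at 3 h, 6203 to 6772 at 6 h, 3309 to 4930 with time at pH 7.4, 1915 to 3408 with time at pH 6.0 and 3457 to 5136 for the difference between the times. The count for pH at 3 h was 1661 without the first 3 h control library and 1649 and 1648 without the second and the third 3 h acid libraries, and the count with time at pH 6.0 was 1915 without the last of these. The changed members then numbered 2 to 4, 2 to 4, 1 to 1, 0 to 2 and 0 to 3.

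Log2 values that changed sign passed no test. ARRDC1 for pH at 6 h was 0.0068 with median-of-ratios factors, 0.00042 without a filter, 0.042 with the 5 CPM filter, 0.012 in the groups compared and 0.0062 in DESeq2. MLX in the difference between the times was 0.0025, 0.036, 0.011 and 0.0068 with median-of-ratios factors, no filter, the 5 CPM filter and DESeq2. With total counts ARRDC4 for pH at 6 h was -0.011, and MLX with time was -0.023 at pH 7.4 and -0.038 at pH 6.0. With the length offset MLXIP was 0.086 for pH at 6 h and -0.0043 with time at pH 7.4, against -0.10 and 0.16 in the analysis reported. Leaving out libraries, the ranges with both signs were -0.13 to 0.0090 for ARRDC4 and -0.18 to 0.019 for ARRDC2 for pH at 3 h, and -0.082 to 0.12 for ARRDC1 and -0.011 to 0.11 for ARRDC4 at 6 h. With time they were -0.19 to 0.020 for ARRDC1 and -0.076 to 0.031 for ARRDC2 at pH 7.4, and -0.00011 to 0.14 for MLX and -0.10 to 0.068 for MLXIPL at pH 6.0. The range was -0.050 to 0.10 for MLX in the difference between the times. The cause was not tested.

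Over all pairs of groups, same-numbered libraries did not consistently deviate together (r from -0.13 to 0.23). The best match stood at the library's own number in 14 of 36 comparisons, so the numbers were not taken as pairs. Between the pH groups at 3 h, r was positive for each number, at 0.226, 0.0902 and 0.0452. With the replicate number as a block 3231 genes changed for pH at 3 h and 7457 at 6 h, against 2937 and 7342 without it. The block also left the members' counts as they were, at 3 and 4, and gave 0.00077 for ARRDC1 at 6 h.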

Other observations

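Among 6 tested genes of the arrestin fold outside the ARRDC group, VPS26C, a subunit of the retriever complex, was the sole gene called at 3 h (-0.25 ± 0.08, edgeR adjusted p = 0.0443), where 18.8% of all genes tested were called. At 6 h 3 of the 6 were lower at pH 6.0 and the other 3 did not pass the test, where 25.1% of all genes tested were lower. ARRB1, a beta-arrestin that turns off receptor signalling, stood at 69.8 CPM at pH 7.4 and 43.0 CPM at pH 6.0 after 6 h (-0.70 ± 0.08, adjusted p = 2.66e-07). Its pH difference was lower at 6 h than at 3 h by 0.74 ± 0.11 in log2 units (adjusted p = 6.03e-05). VPS26C was lower by 0.40 ± 0.08 and VPS26B, a retromer subunit, by 0.28 ± 0.10 at 6 h.

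ESCRT genes of vesicle budding, the machinery that ARRDC1 engages, gave counts near those of all genes tested. Of 15 tested, 1 rose and 2 fell at 3 h, the one that rose being PDCD6IP (0.25 ± 0.08), and 3 rose and 5 fell at 6 h. Over all genes tested 9.53% rose and 9.26% fell at 3 h, and 21.9% rose and 25.1% fell at 6 h. The ATPase VPS4A was lower by 0.50 ± 0.09 and MVB12B by 0.48 ± 0.09 at 6 h, whereas CHMP2A was higher by 0.48 ± 0.09 and HGS by 0.34 ± 0.08. TSG101, the ESCRT protein bound by ARRDC1, stood at 115.6 CPM at pH 7.4 and 110.0 CPM at pH 6.0 after 6 h (adjusted p = 0.501).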
